A study of Arabidopsis thaliana with 20 samples.

Results

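The genes described here are the Arabidopsis histone genes: 40 loci chosen from a fixed list of the core histones H4, H3, H2A and H2B and the linker histone H1, out of 27562 loci in the expression tables. The list follows gene annotation and was chosen with earlier results of these data known. All 40 loci were present in the tables. They comprise 8 loci of H4, 5 of H3.1, 3 of H3.3, 4 of canonical H2A, 2 of H2A.X, 3 of H2A.Z, 3 of H2A.W, 9 of H2B and 3 of H1. Loci with a symbol in the RefSeq annotation are called by it, and the others by their locus identifier and class.

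Meristems dissected by hand were used for RNA sequencing, in 4 groups of 5 libraries: *plt3 plt7* inflorescence meristems (IM), Col-0 IM, shoot apical meristems (SAM) of *plt3 plt7*, and Col-0 SAM. *plt3 plt7* is a CRISPR double mutant of the transcription factor genes *PLETHORA 3* and *PLETHORA 7* in the Col-0 accession, and Col-0 is its wild type. SAMs came from seedlings 7 d post germination (dpg) on nylon mesh over agar, and IMs from soil-grown plants of 31 to 33 dpg whose flowers had been removed down to the youngest primordia. Each library pooled about 50 meristems, so that a library is a pool and not a plant. Seedlings on agar stood under fluorescent tubes, and soil-grown plants under LED tubes of higher light intensity. SAM dissection took off the cotyledons, the oldest true leaves and most hypocotyl tissue, and removal of younger leaves is not described. SAM and IM thus differ in age, substrate, light, dissection and harvest, which cannot be told apart from tissue.

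Library totals were 24.8 to 114.9 megacounts (estimated counts), and 18842 to 20517 genes per library reached 10 counts. *PLT3* transcripts were reduced in the mutant, at 203.7 to 263.1 normalised counts in *plt3 plt7* SAM against 347.8 to 576.9 in Col-0 SAM (log2 fold change -0.97 ± 0.14 (SE), adjusted p = 2.06e-08 in DESeq2, as for all adjusted p-values without another name), and by -0.83 ± 0.07 in IM (adjusted p = 2.47e-27). *PLT7* was not called: it had 135 to 166.4 normalised counts in *plt3 plt7* SAM against 134.1 to 330.3 in Col-0 SAM (-0.47, adjusted p = 0.413), and 582.1 to 743.9 in *plt3 plt7* IM against 694.5 to 921.4 in Col-0 IM (-0.20, adjusted p = 0.495). The 6 floral markers summed to 792 ± 11.4 TPM in *plt3 plt7* IM and 823 ± 18.7 TPM in Col-0 IM, against 2.85 ± 0.780 TPM in *plt3 plt7* SAM and 3.74 ± 1.34 TPM in Col-0 SAM (SD, n = 5 each). *WUS*, which marks the organising centre of the meristem, averaged 5.68 and 5.20 TPM in *plt3 plt7* and Col-0 IM, and was near 0 in SAM, at 0.118 TPM in *plt3 plt7* and 0.0908 TPM in Col-0. *STM*, which marks undifferentiated meristem cells, was present in all groups, at 48.4 and 52.0 TPM in *plt3 plt7* and Col-0 IM against 12.7 and 13.3 TPM in *plt3 plt7* and Col-0 SAM. Of the list of 7 shoot meristem markers, 5 were higher and 2 lower in IM of 7 tested in *plt3 plt7*, and 5 higher and 1 lower of 6 tested in Col-0. *CLV1*, a receptor kinase gene, was lower in both, and *CLV3*, the gene of its ligand, was lower in *plt3 plt7* and not tested in Col-0. The list summed to 136 and 145 TPM in *plt3 plt7* and Col-0 IM against 60.7 and 64.9 TPM in *plt3 plt7* and Col-0 SAM. The 4 green leaf markers summed to 3371 ± 209 TPM in *plt3 plt7* IM and 3644 ± 275 TPM in Col-0 IM, against 17510 ± 1752 TPM in *plt3 plt7* SAM and 18670 ± 3506 TPM in Col-0 SAM.

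Histones package DNA into nucleosomes, in which H2A, H2B, H3 and H4 form the core and H1 binds the DNA between cores. H4, H3.1, canonical H2A and H2B supply chromatin duplication, and most of their synthesis in dividing cells falls in S phase, the part of the cell cycle in which DNA is replicated. Replacement variants are also deposited outside S phase: H3.3 at transcribed genes, H2A.Z near transcription starts, and H2A.W in heterochromatin. H2A.X is the variant that is phosphorylated at sites of DNA damage. Unlike most animal replication-dependent histone mRNAs, those of plants are polyadenylated, so that poly(A)-based and total RNA libraries can both hold them.

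The members differ in what their transcripts encode. The 8 H4 loci code for a single protein of 103 residues through 8 different coding sequences, which are 78.8% to 98.1% identical in pairs. The 5 H3.1 loci likewise share 1 protein of 136 residues, and so do the 3 H3.3 loci, and these H3.1 and H3.3 proteins differ at 4 residues. In contrast, all loci of H2A, H2A.X, H2A.Z, H2A.W, H2B and H1 encode proteins of their own. Because the coding sequences differ, most loci could be told apart by reads: 27 of 40 shared less than 10% of their 31-base words with transcripts of other genes, and 9 shared none. The extreme case is AT5G02570 (H2B), all of whose words also occur in a transcript of the H2A.W gene *HTA12* on the opposite strand. Next is AT3G27360 (H3.1), which shares 38.1% of its words. It shares 37.1% with AT3G27380, an overlapping gene on the same strand that is not a member. AT3G46320 and AT3G45930 (H4) share 35.3% and 32.7% of their words, and their separate values are therefore less certain than their sum. Of the 40 loci, 9 overlap another locus. Members were short, with a median transcript length of 840.5 nt against 1661 nt over all loci that averaged at least 10 counts.

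Histone promoters of plants carry several short elements known from cereal and Arabidopsis H3 and H4 genes, chief among them the octamer CGCGGATC and the hexamer ACGTCA. Both were searched on both strands in the 250 bases before each annotated gene start (TAIR10.1, RefSeq). The octamer occurred at 10 of 40 members (25%), against 37 of all 27443 promoters (0.135%). It was found at 2 of 8 H4, 3 of 5 H3.1, 1 of 3 H3.3, 2 of 4 canonical H2A, 1 of 3 H2A.W and 1 of 3 H1 loci, and at 0 of 9 H2B loci. The following stretches show it in capitals, as the octamer or its reverse complement GATCCGCG, at members whose levels are described below. Each stretch holds 15 bases on either side, read 5′ to 3′ on the strand of its gene:
AT5G59690, H4, chr5:24051388-24051425, plus strand: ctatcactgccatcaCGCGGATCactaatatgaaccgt
AT1G07660, H4, chr1:2368692-2368729, plus strand: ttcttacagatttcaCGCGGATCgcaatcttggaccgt
AT5G65360, H3.1, chr5:26120685-26120722, minus strand: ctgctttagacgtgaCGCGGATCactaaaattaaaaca
AT1G09200, H3.1, chr1:2972402-2972439, minus strand: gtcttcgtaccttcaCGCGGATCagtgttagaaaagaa
HTA13, H2A, chr3:7229307-7229344, plus strand: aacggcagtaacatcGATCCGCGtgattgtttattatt
HTA6, H2A.W, chr5:24116314-24116351, minus strand: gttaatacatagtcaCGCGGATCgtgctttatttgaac
AT1G06760, H1, chr1:2077773-2077810, minus strand: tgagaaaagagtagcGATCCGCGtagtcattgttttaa

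The hexamer was most frequent at the H2B genes. It lay in the windows of 8 of 9 H2B loci (88.9%; the exception was *HTB4*) and of 11 of 40 members in all (27.5%), against 2110 of 27443 promoters (7.69%). Outside H2B it lay at 2 of 5 H3.1 and 1 of 3 H3.3 loci. Only AT5G10400 (H3.1) held both octamer and hexamer. At 5 of the 9 H2B loci (55.6%) the hexamer was followed by the letters GATC with 2 bases between. The H3.3 gene AT5G10980 held this pattern too, so that 6 of 40 members had it (15%). The pattern was chosen after these windows had been read and occurs in 15 of all promoters (0.0547%). Stretches of some H2B loci are shown with the hexamer in capitals, and with 15 bases on either side. *HTB2* and *HTB11* lack the GATC pattern, and AT5G02570, which has it, is not shown:
HTB2, chr5:7652889-7652924, minus strand: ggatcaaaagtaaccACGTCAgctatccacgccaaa
HTB1, chr1:2412892-2412927, plus strand: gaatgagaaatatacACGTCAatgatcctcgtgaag
AT2G37470, chr2:15736664-15736699, plus strand: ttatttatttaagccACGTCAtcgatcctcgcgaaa
AT3G53650, chr3:19889186-19889221, plus strand: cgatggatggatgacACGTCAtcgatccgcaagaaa
HTB9, chr3:16898149-16898184, minus strand: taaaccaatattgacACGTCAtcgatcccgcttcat
HTB11, chr3:16914199-16914234, minus strand: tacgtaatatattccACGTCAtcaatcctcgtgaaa
The nonamer CATCCAACG lay in 0 of 40 windows (41 of all promoters, 0.149%). The E2F-type letters TTTGGCGC lay in 2 member windows, those of AT3G46320 and AT3G45930 (99 of all promoters, 0.361%), and TTTCCCGC in none of the 40 (170 of all promoters, 0.619%). The windows of AT3G46320 and AT3G45930 are nearly identical, with TTTGGCGC 237 bases before the gene start in both. These 2 matches therefore do not count as independent occurrences. A match is only a run of letters within this window, and binding was not measured.

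The histone genes together took 2.51% ± 0.159 of all TPM in *plt3 plt7* IM and 2.51% ± 0.141 in Col-0 IM, against 1.11% ± 0.0834 in *plt3 plt7* SAM and 1.06% ± 0.0904 in Col-0 SAM (SD, n = 5 each). TPM is the transcript level scaled by transcript length and library total, so that genes can be compared on it. The lowest IM library, at 2.37%, lay above the highest SAM library, at 1.249%. The member with the highest level in every group was the H3.1 gene AT5G65360, which by mean TPM ranked 35 among all genes in *plt3 plt7* IM and 36 in Col-0 IM, against 154 in *plt3 plt7* SAM and 155 in Col-0 SAM. In IM it was followed by the H2B gene *HTB2* and the H2A.W gene *HTA6*, whereas in SAM *HTA6* came second and the H4 gene AT5G59690 after it.

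Summed by class, H2B and H3.1 transcripts were the most abundant. H2B reached 5858 ± 413 TPM in *plt3 plt7* IM and 5846 ± 327 TPM in Col-0 IM, against 2385 ± 230 TPM in *plt3 plt7* SAM and 2217 ± 196 TPM in Col-0 SAM. H3.1 reached 5338 ± 350 and 5324 ± 370 TPM in *plt3 plt7* and Col-0 IM, against 2243 ± 80.4 and 2190 ± 238 TPM in *plt3 plt7* and Col-0 SAM. H4 followed, at 4624 ± 471 and 4697 ± 430 TPM in *plt3 plt7* and Col-0 IM, against 1991 ± 229 and 1828 ± 179 TPM in *plt3 plt7* and Col-0 SAM. The H2A family divided its transcripts among 4 classes, of which canonical H2A and the heterochromatic H2A.W were the largest. Canonical H2A had 2348 ± 299 and 2327 ± 145 TPM in *plt3 plt7* and Col-0 IM, against 1016 ± 139 and 954 ± 107 TPM in *plt3 plt7* and Col-0 SAM. H2A.W had 1824 ± 184 and 1824 ± 89.1 TPM in *plt3 plt7* and Col-0 IM, against 851 ± 90.5 and 811 ± 67.8 TPM in *plt3 plt7* and Col-0 SAM. H2A.Z had 956 ± 50.9 and 988 ± 57.7 TPM in *plt3 plt7* and Col-0 IM, against 523 ± 44.0 and 506 ± 45.3 TPM in *plt3 plt7* and Col-0 SAM. H2A.X was the smallest class in every group. It had 694 ± 15.1 and 661 ± 38.3 TPM in *plt3 plt7* and Col-0 IM, against 366 ± 16.2 and 349 ± 33.5 TPM in *plt3 plt7* and Col-0 SAM. H3.3 had 2248 ± 56.2 and 2298 ± 63.0 TPM in *plt3 plt7* and Col-0 IM, against 1178 ± 48.8 and 1232 ± 52.0 TPM in *plt3 plt7* and Col-0 SAM. H1 had 1162 ± 63.6 and 1155 ± 27.4 TPM in *plt3 plt7* and Col-0 IM, against 534 ± 54.5 and 511 ± 17.5 TPM in *plt3 plt7* and Col-0 SAM. In all 9 classes the IM libraries lay above the SAM libraries of the same genotype, and within each tissue the ranges of the genotypes overlapped.

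**Figure D1:**
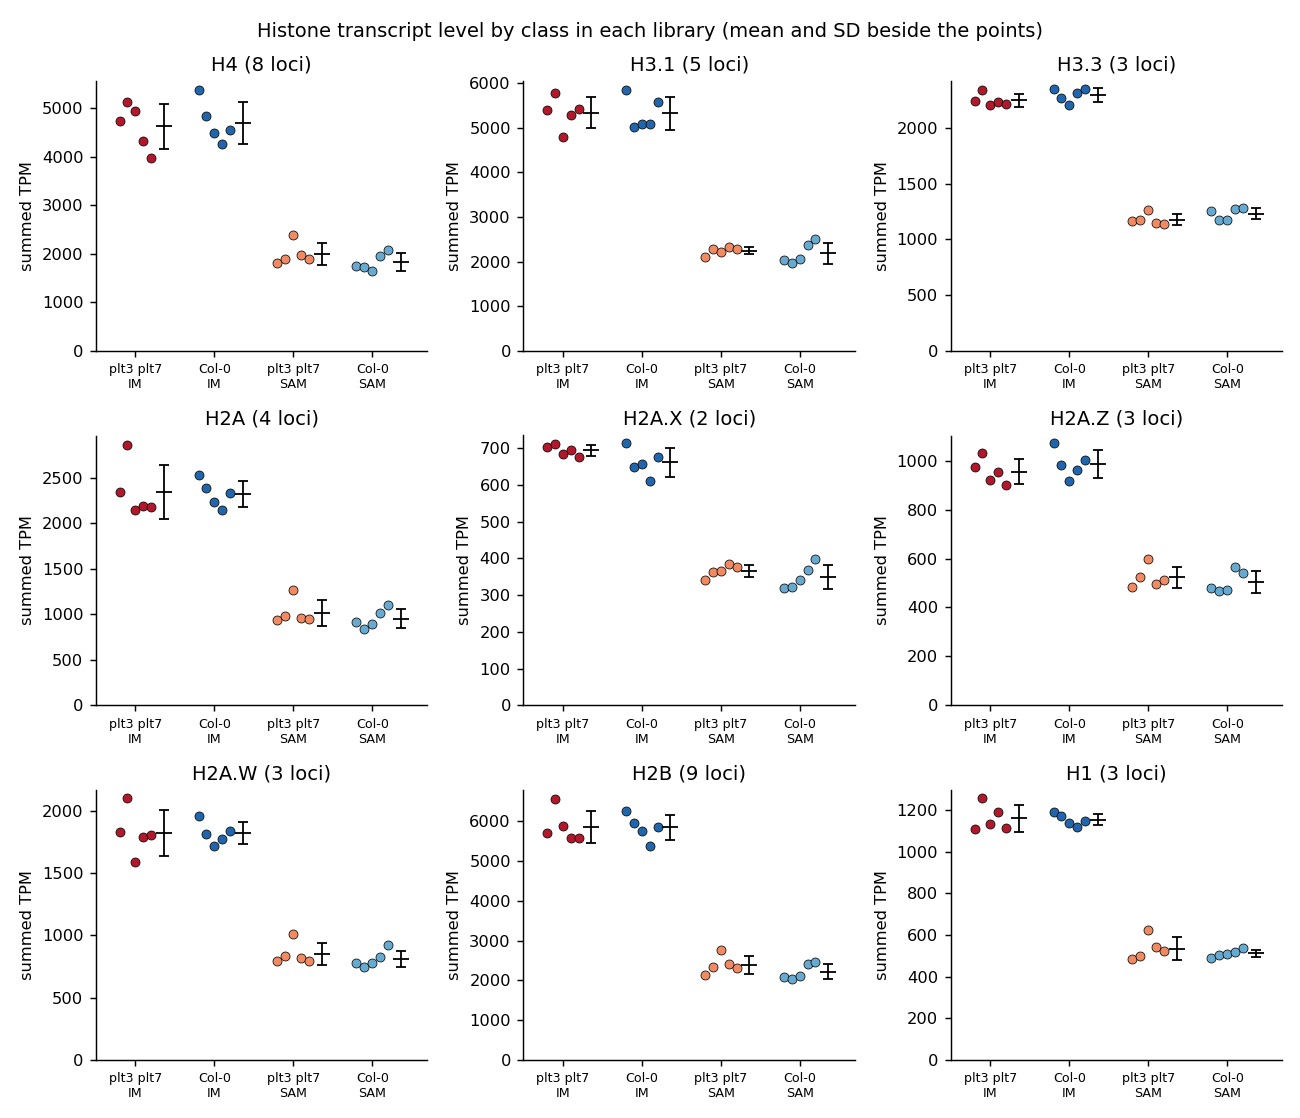
Summed TPM of each histone class (y axis, linear from 0) in each library (points), with the mean and SD of the 5 libraries of a group beside them; groups on the x axis are *plt3 plt7* IM, Col-0 IM, *plt3 plt7* SAM and Col-0 SAM. In H2B, for example, the IM groups averaged 5858 and 5846 TPM and the SAM groups 2385 and 2217 TPM.

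IM and SAM were compared within each genotype, to show how histone transcripts differ between the reproductive and the vegetative shoot apex. In *plt3 plt7*, 37 of the 39 members tested were higher in IM and 0 were lower, where 26.4% of all 19689 genes tested were called higher. A gene was called when its adjusted p was under 0.1 and the difference was over 25%. The median fold change of the members was 0.84 on the log2 scale (1.79-fold), while that of all genes was 0.02. In Col-0, an independent set of libraries, 37 of 39 were higher in IM and 0 lower, against 26.7% of all 19627 genes, with a median of 1.08 (2.11-fold). In normalised counts the groups did not overlap at 35 of 39 members in *plt3 plt7* (26.5% of all genes did not overlap and were higher in IM) and at 39 of 39 in Col-0 (28.4% of all genes). Both counts include *HIS1-3*, which had enough counts to be tested only through its IM libraries. Its place among them follows from that filter and is no support for a tissue difference. The 4 members that overlapped in *plt3 plt7* were *HIS4*, *HTA9*, AT2G28720 and *HTB11*. With edgeR 38 members were called higher in each genotype, *HIS1-3* among them (all genes: 5349 of 19689 in *plt3 plt7* and 5437 of 19627 in Col-0). These fold changes rest on size factors, under which the median gene does not differ; by TPM the median of all genes was itself higher in IM, by 0.37 in *plt3 plt7* and 0.33 in Col-0 on the log2 scale, beside 1.18 and 1.3 for the members. In bulk tissue such as this, fewer cells of a type and less RNA per cell cannot be told apart. The green leaf marker sums given above were lower in IM than in SAM, and their part in the histone difference was not tested. Mean fragment length differed between the tissues by -10.6 nt in *plt3 plt7* and -43.7 nt in Col-0 (IM minus SAM; two-sided exact permutation p = 0.738 and 0.0397, n = 5 each). With an offset for effective transcript length the medians of the members were 0.82 in *plt3 plt7* and 0.99 in Col-0, and with a length trend removed in each library 1.11 and 1.16.

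H4 came as 1 protein from 8 loci, and all 8 rose in IM, by 0.67 to 1.10 in *plt3 plt7* and 0.93 to 1.38 in Col-0 on the log2 scale, with medians of 0.98 and 1.23. The locus with the highest level, AT5G59690, had 1213, 1236, 1204, 1097 and 1063 TPM in *plt3 plt7* IM, against 566, 549.8, 662, 569 and 559 TPM in *plt3 plt7* SAM. In Col-0 it had 1438, 1235, 1131, 1092 and 1146 TPM in IM, against 553, 519, 494, 586 and 612 TPM in SAM. It made the smallest tissue difference among the H4 loci in both genotypes. AT1G07660, a weaker locus, had 232, 259, 195, 211 and 232 TPM in *plt3 plt7* IM, against 76.8, 76.3, 101, 80.8 and 81.5 TPM in *plt3 plt7* SAM. The Col-0 libraries had 247, 211, 221, 245 and 241 TPM in IM and 75.7, 81.5, 82.1, 89.1 and 85.0 TPM in SAM. Its difference was 1.10 ± 0.10 in *plt3 plt7* and 1.297 ± 0.07 in Col-0 (SE; adjusted p = 5.82e-69 in Col-0), although 37.1% of its words are shared with other transcripts. AT1G07820 had 610.3, 692, 705, 599.5 and 567 TPM in *plt3 plt7* IM, against 224, 247, 289.6, 254 and 248 TPM in *plt3 plt7* SAM. Col-0 meristems gave 660.4, 607, 606, 610.4 and 647 TPM in IM and 208, 226, 232, 253 and 258 TPM in SAM, with a difference of 1.18 ± 0.07 (adjusted p = 4.65e-67). By TPM, none of these 3 loci had an IM library as low as any SAM library of its genotype. AT1G07660 and AT1G07820 are shown for their small adjusted p and do not stand for the class. In normalised counts 7 of the 8 H4 loci did not overlap in *plt3 plt7* (26.5% of all genes), *HIS4* being the exception, and 8 of 8 in Col-0 (28.4%).

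The 5 H3.1 loci, which encode the replication-coupled H3, rose by 0.71 to 1.09 in *plt3 plt7* and by 0.890 to 1.252 in Col-0, with medians of 1.00 and 1.13. AT5G65360 had 1975, 2069, 1729, 1992 and 2074 TPM in *plt3 plt7* IM, against 893, 985, 841, 1032 and 985 TPM in *plt3 plt7* SAM. In Col-0 it had 2201, 1850.5, 1907, 1926 and 2054 TPM in IM, against 864, 817, 895, 1029 and 1079 TPM in SAM. As with AT5G59690 in H4, the most abundant locus of the class had the smallest tissue difference, of 0.71 ± 0.06 in *plt3 plt7* and 0.89 ± 0.10 in Col-0. AT1G09200 had the largest, of 1.09 ± 0.07 in *plt3 plt7* (adjusted p = 7.03e-60) and 1.252 ± 0.10 in Col-0. It had 1512, 1577, 1319.6, 1412 and 1447 TPM in *plt3 plt7* IM, against 513, 539, 554, 536 and 549.8 TPM in *plt3 plt7* SAM. The Col-0 libraries had 1586, 1356, 1349.9, 1328 and 1479.7 TPM in IM, against 477, 476, 476, 549 and 603 TPM in SAM. The IM and SAM libraries of both loci were far apart in each genotype.

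The 3 H3.3 loci, which encode the H3 deposited outside replication, rose by 0.50 to 0.72 in *plt3 plt7* and 0.54 to 0.75 in Col-0 (medians 0.55 and 0.64). The locus with the highest level in IM, AT4G40040, had 795, 839, 858, 788 and 753 TPM in *plt3 plt7* IM, against 431, 413, 485, 419 and 407 TPM in *plt3 plt7* SAM. Col-0 meristems gave 848, 848, 809.5, 858 and 843 TPM in IM, against 468, 442, 402, 457 and 440.3 TPM in SAM. Its IM libraries were all above its SAM libraries, at a difference of 0.55 ± 0.08 in *plt3 plt7* and 0.64 ± 0.08 in Col-0. In Col-0 the largest H3.3 difference, 0.75 at AT5G10980, was below the smallest of H3.1, 0.89 at AT5G65360; in *plt3 plt7* they were 0.72 and 0.71. The loci AT4G40030 and AT4G40040 lie 42 bases apart on the same strand.

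In the H2A family, canonical H2A (medians 0.87 in *plt3 plt7* and 1.02 in Col-0) and H2A.W (0.80 and 0.98) had similar medians, and H2A.X the lowest (0.58 and 0.67). *HTA13*, the most abundant canonical locus, had 950.3, 1279, 778, 882 and 919 TPM in *plt3 plt7* IM, against 368, 396, 493, 369.9 and 363 TPM in *plt3 plt7* SAM. In Col-0 it had 1074, 1016, 945, 932 and 1000.3 TPM in IM, against 373, 308, 347, 422 and 447 TPM in SAM. Its lowest IM library was still well above its highest SAM library. *HTA6*, which encodes an H2A.W, had 1527, 1734, 1289, 1472 and 1496 TPM in *plt3 plt7* IM, against 643, 678, 798, 646 and 636 TPM in *plt3 plt7* SAM. The Col-0 libraries had 1615, 1461, 1398, 1469.7 and 1502 TPM in IM, against 623, 584, 626, 667 and 748 TPM in SAM. *HTA6* thereby outnumbered every canonical H2A locus in mean TPM in all groups. *GAMMA-H2AX*, the more abundant H2A.X gene in IM, had 375, 384, 364, 362 and 357 TPM in *plt3 plt7* IM, against 170.4, 183, 192, 184 and 185 TPM in *plt3 plt7* SAM. Col-0 meristems gave 378, 333, 337, 327 and 342 TPM in IM, against 161, 162, 173, 193 and 204 TPM in SAM. Of its words 32.4% are shared, most of them with an overlapping gene on the opposite strand.

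H2A.Z, the variant placed near transcription starts, had 1 member apart from the other 2. *HTA8* and *HTA11* rose by 0.77 ± 0.08 and 0.84 ± 0.08 in *plt3 plt7* and by 1.01 ± 0.12 and 1.10 ± 0.10 in Col-0. *HTA9* did not pass: it had 358, 391, 346, 369 and 345 TPM in *plt3 plt7* IM, against 236, 249.99, 304, 242 and 251 TPM in *plt3 plt7* SAM. In Col-0 it had 353, 379.8, 340.5, 388 and 379 TPM in IM, against 238, 246, 241, 281 and 262 TPM in SAM. Its difference on the size-factor scale was 0.15 ± 0.09 in *plt3 plt7* (adjusted p = 0.101) and 0.30 ± 0.06 in Col-0 (adjusted p = 1.27e-06, but 1.23-fold and thus under the 25% limit). *HTA9* was the most abundant H2A.Z gene in SAM, at 257 ± 27.0 TPM in *plt3 plt7* and 253 ± 17.8 TPM in Col-0. In IM *HTA11* was higher by mean, at 389.9 TPM in *plt3 plt7* and 398 TPM in Col-0, against 362 and 368 TPM for *HTA9*.

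The H2B loci covered the widest range of tissue differences of the core histones, from 0.44 to 1.48 in *plt3 plt7* and from 0.60 to 1.69 in Col-0. *HTB2* had the largest difference of all members apart from *HIS1-3*, at 1.48 ± 0.09 in *plt3 plt7* (adjusted p = 1.22e-62) and 1.69 ± 0.08 in Col-0 (adjusted p = 1.20e-108). It had 1645, 1923, 1839, 1698 and 1715 TPM in *plt3 plt7* IM, against 430.1, 498, 588, 502 and 475 TPM in *plt3 plt7* SAM. The Col-0 libraries had 1835, 1774, 1774, 1706 and 1829 TPM in IM, against 425, 433, 449, 538 and 512 TPM in SAM. *HTB1* came next, at 1.29 ± 0.07 in *plt3 plt7* (adjusted p = 8.40e-66) and 1.49 ± 0.10 in Col-0. It had 872, 964, 832, 815 and 804 TPM in *plt3 plt7* IM, against 252, 283, 278, 289 and 283 TPM in *plt3 plt7* SAM. Col-0 meristems gave 922, 877, 854, 739 and 837 TPM in IM, against 229.7, 222, 251, 285 and 296 TPM in SAM. At the other end were *HTB11* (0.44 ± 0.10 in *plt3 plt7*, 0.71 ± 0.09 in Col-0) and AT2G28720 (0.47 ± 0.11 and 0.60 ± 0.10). All 4 of these loci hold the hexamer in their upstream window. AT5G02570 was too low to test, with at most 4.98 TPM in any library.

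**Figure D2:**
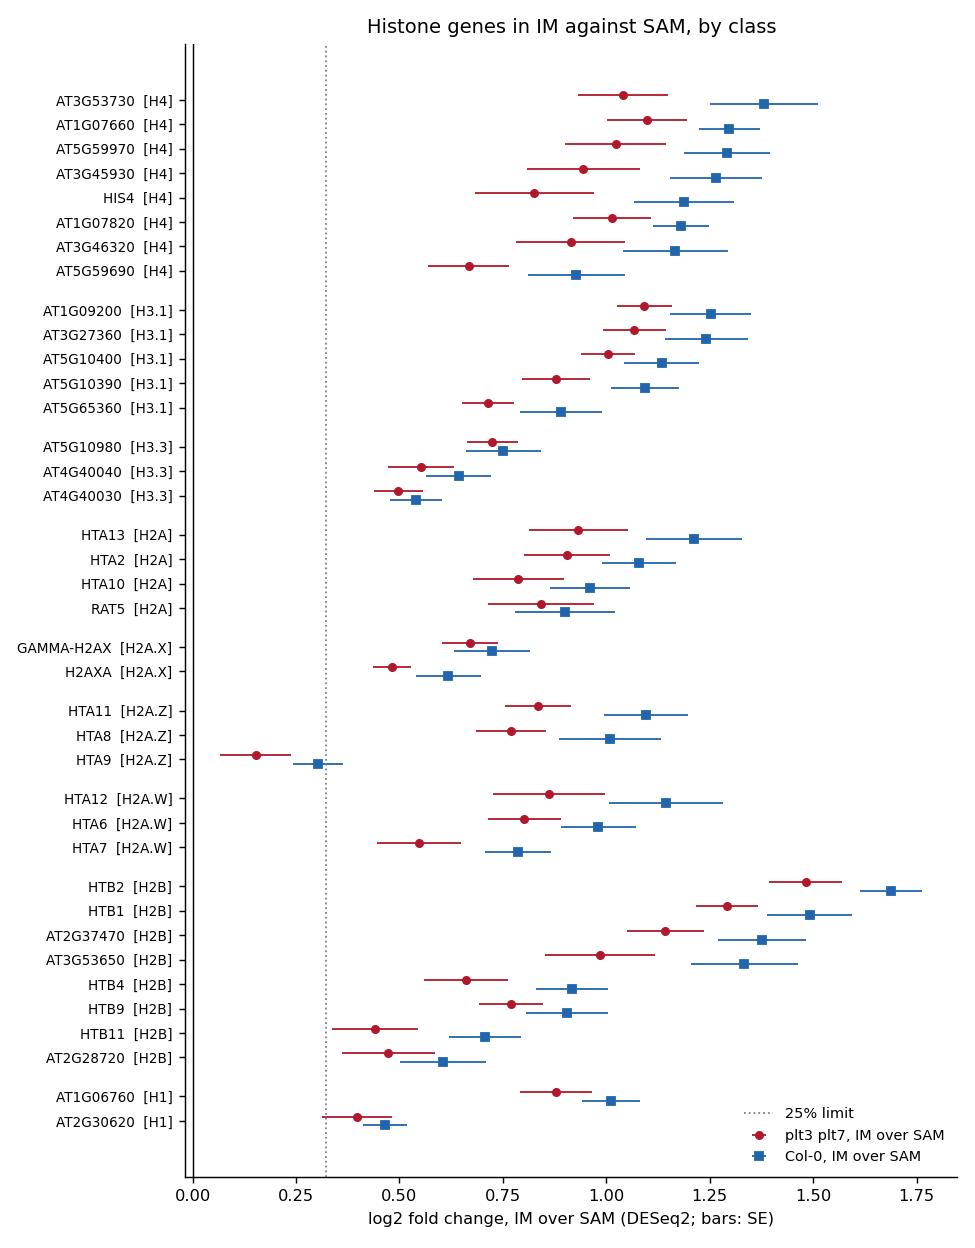
Log2 fold change of IM over SAM (x axis) with its SE for 38 histone genes, grouped by class down the page, in *plt3 plt7* and in Col-0; *HIS1-3* and AT5G02570 are left out. All differences are above 0, from 0.15 (*HTA9* in *plt3 plt7*) to 1.69 (*HTB2* in Col-0).

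Because the classes rose by unequal amounts, the composition of the histone transcripts differed between the tissues. The ratio of H3.1 to H3.3 transcripts was 2.37 ± 0.114 in *plt3 plt7* IM (2.18 to 2.46) and 1.91 ± 0.112 in *plt3 plt7* SAM (1.76 to 2.01). In Col-0 it was 2.32 ± 0.118 in IM (2.20 to 2.49) and 1.78 ± 0.139 in SAM (1.63 to 1.96). The share of H2A.Z in the transcripts of the H2A family was 16.5% ± 0.734 in *plt3 plt7* IM and 19.0% ± 0.432 in *plt3 plt7* SAM. In Col-0 it was 17.0% ± 0.355 in IM and 19.3% ± 0.812 in SAM. Within H2A.Z it was *HTA9* that differed least by TPM (values above), while *HTA8* averaged 204 and 222 TPM in *plt3 plt7* and Col-0 IM against 94.5 and 94.4 TPM in *plt3 plt7* and Col-0 SAM, and *HTA11* 172 and 158 TPM in *plt3 plt7* and Col-0 SAM. Canonical H2A took 40.2% and 40.1% of the family in *plt3 plt7* and Col-0 IM, against 36.8% and 36.4% in *plt3 plt7* and Col-0 SAM. Within H2B, *HTB2* took 30.1% ± 1.02 in *plt3 plt7* IM and 20.9% ± 0.487 in *plt3 plt7* SAM, and 30.6% ± 1.04 in Col-0 IM and 21.2% ± 0.710 in Col-0 SAM. In contrast, H2B and H4 moved almost in step, with an H2B to H4 ratio of 1.272 and 1.248 in *plt3 plt7* and Col-0 IM, against 1.199 and 1.214 in *plt3 plt7* and Col-0 SAM. IM and SAM libraries did not overlap in the H3.1 to H3.3 ratio, the H2A.Z share or the *HTB2* share in either genotype. These are sums and ratios over members and were given no test.

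**Figure D3:**
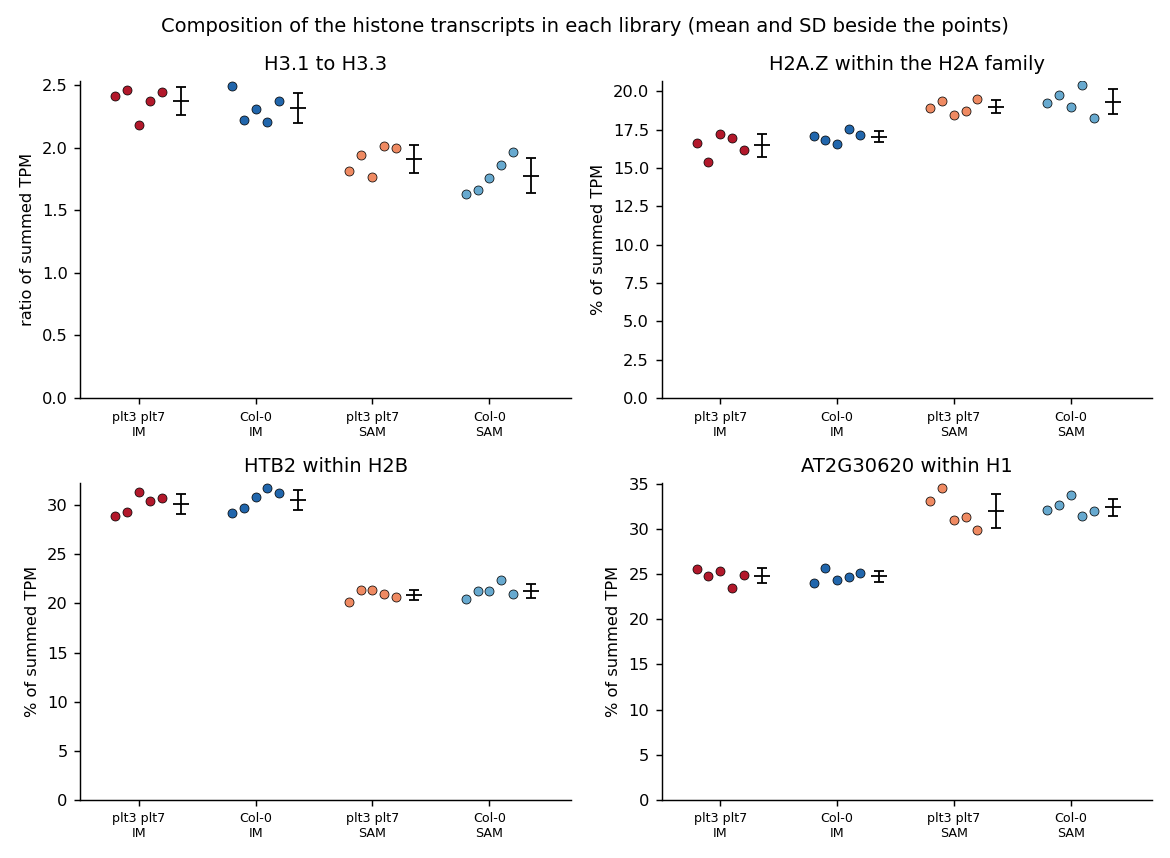
Composition of the histone transcripts in each library (points, with mean and SD beside them): the ratio of H3.1 to H3.3 TPM, and the percent of TPM that H2A.Z takes of the H2A family, *HTB2* of H2B and AT2G30620 of H1, each on an axis from 0. IM libraries lie above SAM libraries in H3.1 to H3.3 and *HTB2*, and below them in H2A.Z and AT2G30620.

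The 3 H1 loci, which encode linker histones, had 3 different patterns. AT1G06760 supplied most H1 transcripts and rose like the core histones, by 0.88 ± 0.09 in *plt3 plt7* and 1.01 ± 0.07 in Col-0. It had 823, 945, 843, 818 and 837 TPM in *plt3 plt7* IM, against 324, 326, 429.8, 372 and 367 TPM in *plt3 plt7* SAM. In Col-0 it had 903, 869.5, 858, 765 and 857 TPM in IM, against 331, 340.3, 337, 355 and 364 TPM in SAM. AT2G30620 rose by 0.40 ± 0.08 in *plt3 plt7* and 0.47 ± 0.05 in Col-0, less than any other called member. Its share of H1 transcripts was 24.8% ± 0.821 in *plt3 plt7* IM and 32.0% ± 1.85 in *plt3 plt7* SAM, and 24.8% ± 0.618 in Col-0 IM and 32.4% ± 0.909 in Col-0 SAM, without overlap between the tissues.

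*HIS1-3*, the linker histone known to be induced by drought and low light, was almost silent in most libraries. It had 1.21, 0.988, 1.96, 93.5 and 1.39 TPM in *plt3 plt7* IM, against 0.296, 0, 0.0808, 0.0975 and 0.453 TPM in *plt3 plt7* SAM. The Col-0 libraries had 0.970, 2.45, 2.21, 79.2 and 3.65 TPM in IM, against 0.168, 0.228, 0.382, 0.119 and 0.117 TPM in SAM. Replicate 4 of both IM groups stood far above the rest, with 1935 counts in *plt3 plt7* and 1074 in Col-0, while the other IM libraries had 13 to 110 counts. These 2 libraries belong to IM harvest group 2, as do both replicates 3, in which *HIS1-3* was low. The fitted tissue differences of 6.34 ± 1.55 in *plt3 plt7* and 6.19 ± 1.22 in Col-0 were given no p by DESeq2, because its filter on outlying counts removed the gene, and edgeR adjusted p-values were 0.00531 and 0.00268. Without replicate 4 of *plt3 plt7* IM the difference in that genotype was 2.25 (adjusted p = 0.00252). Without replicate 4 of Col-0 IM the gene had too few counts in Col-0 to be tested. Even apart from replicate 4, all IM libraries were above all SAM libraries. The gene had 0 to 13 counts in *plt3 plt7* SAM and 1 to 7 in Col-0 SAM, and so entered these fits only through IM. Neither the order of its libraries nor the p-values above are therefore independent support for a tissue difference.

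**Figure D4:**
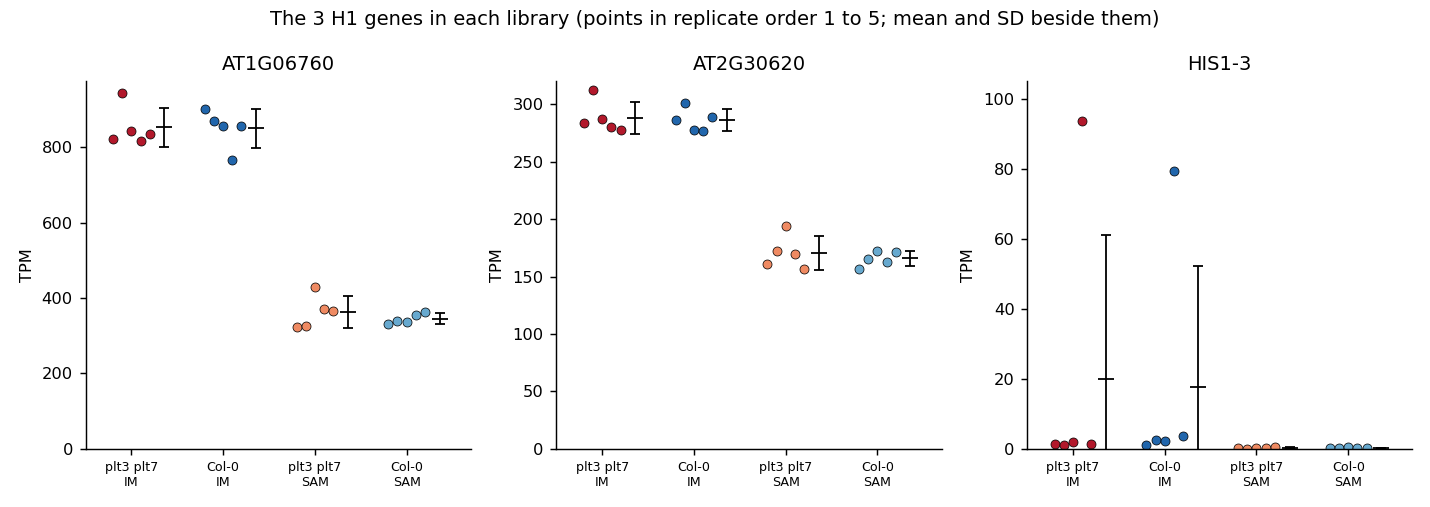
TPM of the 3 H1 genes (y axes from 0) in each library, in the order of replicates 1 to 5, with mean and SD beside the points. *HIS1-3* reaches 93.5 and 79.2 TPM in replicate 4 of *plt3 plt7* IM and of Col-0 IM, and at most 3.65 TPM in all others.

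The genotypes were then compared within SAM, with harvest group as a covariate. No member was called, of 38 tested, where 0.453% of all 19185 genes were called. edgeR also called 0, the smallest adjusted p was 0.570, and 14 of 38 members had an unadjusted p under 0.05, beside 1336 of 19185 genes. Although no member passed, 37 of 38 fold changes were positive, beside 9289 of 19185 genes, with a median of 0.16 (1.12-fold) against -0.01 for all genes. Class medians were 0.24 for H4, 0.20 for H2B, 0.18 for H3.1, 0.18 for canonical H2A, 0.15 for H2A.W, 0.14 for H2A.X, 0.14 for H2A.Z, 0.08 for H1 and 0.04 for H3.3. *HTB11*, an H2B gene, averaged 6578 ± 883 normalised counts in *plt3 plt7* SAM and 5476 ± 443 in Col-0 SAM, a difference of 0.23 ± 0.10 (SE; adjusted p = 0.604 in DESeq2). AT5G59970 (H4) had the smallest p, with a difference of 0.26 ± 0.11 (adjusted p = 0.570 in DESeq2), and the largest difference was 0.32 at AT3G53650 (H2B).

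The fragment length of the libraries moved with genotype in SAM. Taken as the difference between the deposited length and effective length of long transcripts, it averaged 381 ± 29.6 nt in *plt3 plt7* SAM (346 to 407) and 417 ± 8.47 nt in Col-0 SAM (413 to 432; SD, n = 5 each). The difference of -36.4 nt had p = 0.00794 in a two-sided exact permutation test, the smallest p that 5 against 5 libraries allow. Fold changes went with transcript length as well: over all genes tested, the median fold change in SAM was 0.17 for transcripts under 700 nt, 0.08 for 700 to 1200 nt and -0.03 for longer ones. With an offset for effective transcript length the median of the members was 0.09, with 34 positive and 4 negative. With a trend on transcript length removed in each library it was 0.06, with 29 positive and 9 negative. By TPM, which are scaled by effective length, the median over members was 0.07 and that over all genes -0.04. Within the 4 harvest groups of SAM the log2 TPM ratio of the summed members, *plt3 plt7* over Col-0, was 0.05, 0.23, -0.04 and -0.13, and the fragment length differed by -7.26, -14.2, -80.3 and -66.4 nt. The ratio was thus positive in 2 harvest groups and negative in 2, each with 1 or 2 libraries per genotype.

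One library of *plt3 plt7* SAM stood above the others. Replicate 3 was above the other 4 libraries of its group at 33 of 40 members, with a median ratio of 1.21 to their mean. The share of all genes highest in this library is not given here. Whether the shift is particular to the histone genes was therefore not tested. In it H4 summed to 2389 TPM, against 1813 to 1965 TPM in the other 4, and canonical H2A to 1263 TPM, against 941 to 977 TPM. The sum of H3.1 was within the range of the others, at 2224 TPM against 2112 to 2318 TPM: 4 of its 5 loci were highest in this library, and AT5G65360, at 841 TPM, was lowest. Without this library the median difference of the members between the genotypes was 0.12, and without Col-0 SAM replicate 3 it was 0.09, in a range of 0.09 to 0.20 over the omission of each library. In no case was a member called.

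**Figure D5:**
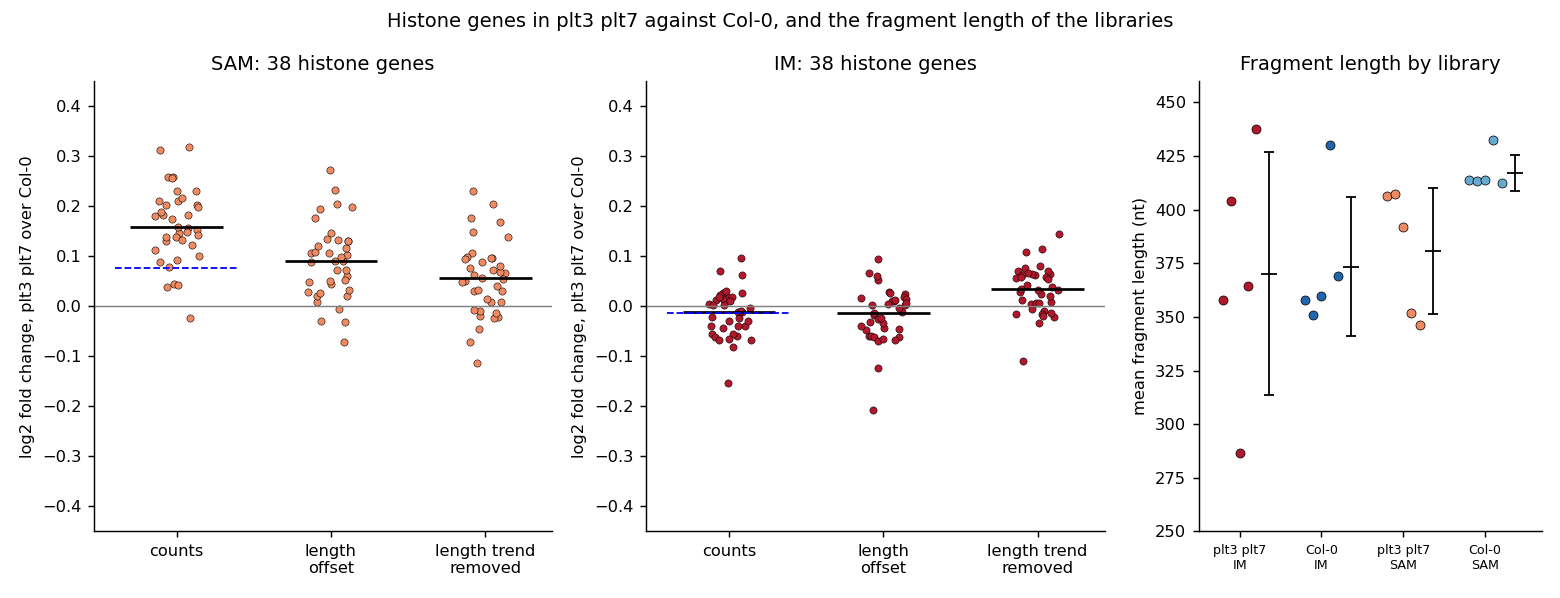
Log2 fold change of *plt3 plt7* over Col-0 of 38 histone genes (points) in SAM and in IM, from counts, with the effective-length offset and with the length trend removed, with black lines at the medians and a dashed blue line at the median of all genes with transcripts of 700 to 1200 nt, and beside them the mean fragment length of each library in nt (axis from 250 nt), with mean and SD. In SAM the medians are 0.16, 0.09 and 0.06, and the fragments average 381 nt in *plt3 plt7* and 417 nt in Col-0; *HIS1-3* is not drawn in IM.

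In IM no difference between the genotypes was detected in the histone genes. Of 39 members tested 0 were called, where 1.53% of all 19432 genes were called, and edgeR also called 0. No member had an unadjusted p under 0.05, the smallest adjusted p was 0.687, and 17 fold changes were positive and 22 negative, with a median of -0.01. The split of signs depended on how transcript length was treated. With the effective-length offset it was 17 positive and 22 negative (median -0.01). With the length trend removed it was 29 positive and 10 negative (median 0.03, and 0.02 for all genes). AT5G65360, the most abundant member, averaged 1968 ± 141 TPM in *plt3 plt7* IM and 1988 ± 141 TPM in Col-0 IM. *HTB2* averaged 1764 ± 114 TPM in *plt3 plt7* IM and 1783 ± 52.3 TPM in Col-0 IM. Fragment lengths were 370.1 ± 56.7 nt in *plt3 plt7* IM (286.6 to 437.5) and 374 ± 32.2 nt in Col-0 IM (350.8 to 430; two-sided exact permutation p = 0.921, n = 5 each). The means were thus close, but single harvests were not. Within IM harvest groups 1, 2 and 3 the difference, *plt3 plt7* minus Col-0, was 26.7, -69.4 and 68.6 nt.

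Whether the genotype effect differed between the tissues was tested as an interaction, the effect in IM minus that in SAM. Of 39 members 0 were called, where 0.354% of all 20348 genes were called. All 39 estimates were negative, with a median of -0.17, while 9835 of 20348 genes had a positive estimate. The smallest p was at the H4 gene AT3G53730, with -0.32 ± 0.15 (unadjusted p = 0.0372, adjusted p = 0.572 in DESeq2), and it was the only unadjusted p under 0.05, beside 1688 of 20348 genes. This direction depended on how transcript length was treated: with the effective-length offset the median was -0.10, with 4 positive and 35 negative, and with the length trend removed it was -0.01, with 17 positive and 22 negative.

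The IM libraries also allowed the harvests of a tissue to be compared. Harvest group 1 held replicates 1 and 2 of each genotype and group 2 held replicates 3 and 4. Between group 2 and group 1, 1 of 39 members was called higher (0.952% of all genes) and 0 lower (0.947%). The one was *HIS1-3*, by 5.11 ± 1.20 (adjusted p = 0.00489), which rested on replicate 4: the adjusted p was 0.213 without that of *plt3 plt7* IM and 0.0430 without that of Col-0 IM, and edgeR gave 0.199. The other 38 members were all lower in group 2, with a median over the members of -0.17 against 0.00 for all genes, and 27 of the 39, *HIS1-3* included, had an unadjusted p under 0.05, beside 2802 of 19432 genes. Of the lower members, 9 had an adjusted p under 0.1 but differed by less than 25% (without the fold limit 316 of 19432 genes were lower), among them *HTA13* at -0.32 (adjusted p = 0.00702) and *HTA6* at -0.22. By transcript length, the median over all genes was -0.07 under 700 nt, -0.08 from 700 to 1200 nt and 0.02 above. With the length trend removed the median of the members was -0.09. With the trend left in, the median of -0.17 ran from -0.22 to -0.13 as single libraries were left out.

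Genes that work with histones were examined as lists written from general knowledge. Among 20 histone chaperones and exchange factors, 12 were higher in IM in each genotype and 0 lower, where 26.4% of all genes in *plt3 plt7* and 26.7% in Col-0 were called higher, with medians of 0.39 in *plt3 plt7* and 0.38 in Col-0. The most significant in Col-0 was AT4G37210, a histone-binding protein of the NASP type, at 0.77 ± 0.06 (adjusted p = 1.12e-42), followed by *CHR1*, the chromatin remodeller also called DDM1, at 0.71 ± 0.06, and *HMG*, a FACT subunit, at 0.59 ± 0.05. *FAS1* and *FAS2*, subunits of the assembly factor CAF-1 that deposits H3.1, rose by 0.50 and 0.56 in *plt3 plt7* and by 0.59 and 0.46 in Col-0. The NAP1-type chaperones *NAP1;1*, *NAP1;2* and *NAP1;3*, which bind H2A and H2B, were not called.

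Among 19 S-phase genes, 14 were higher in IM in each genotype and 0 lower (all genes: 26.4% and 26.7% higher), with medians of 0.54 in *plt3 plt7* and 0.48 in Col-0. They included the subunits of the replicative helicase *MCM4* (0.84 in *plt3 plt7*; 0.79 ± 0.07 in Col-0, adjusted p = 2.01e-28) and *MCM3* (0.77 and 0.68), and the sliding clamp *PCNA1* (0.54 and 0.61). The median of the histone genes was higher than that of the S-phase list in both genotypes. The ratio of H4 TPM to the TPM summed over the S-phase list was 3.84 ± 0.445 in *plt3 plt7* IM and 2.88 ± 0.326 in *plt3 plt7* SAM, and 4.05 ± 0.449 in Col-0 IM and 2.57 ± 0.201 in Col-0 SAM. Of 12 genes of G2 and mitosis, 6 were higher and 0 lower in *plt3 plt7* (median 0.31), and 3 were higher and 1 lower in Col-0 (median 0.12), the last close to the 26.7% of all genes. The mitotic cyclin *CYCB1;1* rose by 0.67 in *plt3 plt7* and 0.55 in Col-0, whereas *CDC20.1*, an activator of the anaphase-promoting complex, was at -0.14 in *plt3 plt7* (not called) and fell by 0.38 in Col-0. No gene of these lists was called between the genotypes in either tissue.

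Of 9 other histone genes outside the 40, only 3 had enough counts for the tissue comparison, and all 3 rose in IM. *HTR12*, the centromeric H3, averaged 50.9 and 47.9 TPM in *plt3 plt7* and Col-0 IM, against 16.7 and 16.6 TPM in *plt3 plt7* and Col-0 SAM, a difference of 1.24 in each genotype. *HTR11* rose by 1.66 in *plt3 plt7* and 1.73 in Col-0. *MGH3*, the H3 variant of the male gamete, stayed at or below 0.183 TPM in all libraries.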

How the data were processed

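Libraries were prepared with a strand-specific kit, and how mRNA was enriched is not given in the sources used here. Reads were trimmed with fastp v.0.23.4 and pseudoaligned to the TAIR10.1 cDNA sequences with kallisto v.0.46.1. No strand option is stated, so reads of overlapping genes cannot be assigned by strand. The authors deposited estimated counts per transcript (not normalised, not whole), TPM, and transcript and effective lengths, for 48266 transcripts of 27562 loci. Lengths of 47942 transcripts equalled those of the RefSeq annotation of TAIR10.1, from which all sequences were read. All 40 members matched a RefSeq locus.

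Estimated counts were summed per locus and rounded. TPM were summed per locus and used for levels. Genes were tested if 5 or more libraries of a comparison held 10 or more counts, by the Wald test of DESeq2 1.42.0 in R 4.3.3 with its own size factors and Benjamini-Hochberg adjustment over all genes. Harvest group was a covariate for genotype, and nested in tissue for the interaction; genotype was the covariate for harvest. Calls needed an adjusted p under 0.1 and a difference over 25%. Fold changes are not shrunken. Alternatives included edgeR 4.0.16 (quasi-likelihood), TMM factors, other filters and limits, a length offset, removal of a length trend, a joint fit and omission of each library. DESeq2, edgeR, the length offset and the length trend were also run on simulated counts. This was done for genotype in SAM, tissue in Col-0, the interaction and harvest. The other comparisons and settings were not simulated. Fragment length was taken over transcripts of at least 2000 nt. Values were summarised with Python 3.11.15, pandas 2.3.3, numpy 2.4.6 and scipy 1.17.1, and drawn with matplotlib 3.10.9.

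The members, lists and tests were chosen with earlier results of these data known. The lists were written from general knowledge; library values are given for the most abundant member of each class and for called members of smallest adjusted p. Libraries are labelled as biological replicates, each a pool of meristems, and p-values measure the spread between them. Totals of 24.8 to 114.9 megacounts leave little counting error for most members, but *HIS1-3*, *HTA12* and AT5G02570 were low. Reads carried no molecular identifiers.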

Additional observations from a re-analysis of the deposited data

Results flagged for a closer look

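Examined were 84 sets of 5 libraries. In 17, the highest or lowest library was set apart from the other 4 by more than Dixon's limit of 0.71. Among independent sets chance gives about 1 in 20. These sets share libraries, and class sums contain the single genes, so the count cannot be set against that share.

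In *plt3 plt7* SAM, replicate 3 stood above the others in several classes and genes. It had 2389 TPM of H4 (next 1965), 1262 TPM of H3.3 (next 1174), 1263 TPM of canonical H2A (next 977) and 1010 TPM of H2A.W (next 838). Its single genes were AT5G59690 at 662 TPM (next 569), *HTA13* at 493 TPM (next 396), *HTA9* at 304 TPM (next 251) and *HTA6* at 798 TPM (next 678).

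In *plt3 plt7* IM, replicate 2 was highest for H3.3 at 2346 TPM (next 2242), for canonical H2A at 2866 TPM (next 2346) and for AT1G06760 at 945 TPM (next 843). Replicate 3 was lowest for AT5G65360, at 1729 TPM, with the next at 1975 TPM. Replicate 4 had 93.5 TPM of *HIS1-3*, the next 1.96 TPM.

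In Col-0 IM, replicate 4 had 79.2 TPM of *HIS1-3* (next 3.65) and a fragment length of 430.0 nt (next 369), and replicate 1 had 378 TPM of *GAMMA-H2AX* (next 342). In Col-0 SAM, replicate 4 had a fragment length of 432 nt (next 414).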

How the results depend on the processing

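Counts of histone genes higher in IM were 37 or 38 in both genotypes under all alternatives but one, and 0 members were called lower; of the 27 members that share less than 10% of their words, 25 were higher in each genotype. The median difference was 0.81 to 0.93 in *plt3 plt7* and 0.99 to 1.11 in Col-0 when single libraries were left out, and 0.82 to 1.11 and 0.98 to 1.16 under the other settings. Removal of the length trend moved the median of all genes by up to 0.17, and the highest medians came from it. It also raised the number of all genes called higher in IM. In *plt3 plt7* 7633 of 19689 were called higher, against 5206 in the main fit, and in Col-0 6926 of 19627, against 5231. Between genotypes 0 members were called in SAM, in IM or for the interaction under any alternative, and the median was 0.06 to 0.20 in SAM, -0.05 to 0.03 in IM and -0.20 to -0.01 for the interaction. For IM harvest group 2 against 1, edgeR called 0 members higher, TMM factors and the length offset 1 lower each, and no fold limit 9 lower. Leaving out single libraries gave 0 to 1 higher and 0 to 7 lower. In CPM, log2 class ratios of IM to SAM moved beyond the spread between libraries for H3.3 (0.81), H2A.X (0.79) and H1 (0.94) in *plt3 plt7* and for H1 in Col-0 (1.03). The small genotype differences of *HTA9* changed sign with the length trend removed (-0.0135 in SAM, 0.0196 in IM, 0.0290 for the interaction); in IM it ran from -0.0580 to 0.0177 as libraries were left out, and was positive without replicate 5 of either genotype. *HIS1-3* turned to 0.23 in IM without harvest group, and its interaction ran from -1.83 to 0.46 as libraries were left out, with 6 of 20 positive. The cause was not tested. Same-numbered libraries deviated together with correlations of -0.14 to 0.30 in SAM and -0.02 to 0.64 in IM between genotypes, and over 0.1 in 3 of 5 pairs in SAM and 4 of 5 in IM. The samples were not taken as paired, since not every pair exceeded 0.1 and the labels do not tie the numbers to days. With the replicate number as a block, 38 members were higher in IM in each genotype (all genes: 5111 of 19689 in *plt3 plt7* and 5151 of 19627 in Col-0). Between genotypes 0 members were called with this block (all genes: 149 of 19185 in SAM and 328 of 19432 in IM).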
